A study of Mus musculus with 8 samples.

Results

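The mTORC1 brakes described here are 10 genes whose products hold back mechanistic target of rapamycin complex 1, the kinase that drives protein synthesis when amino acids, energy and growth factors are plentiful. They are *Ddit4* and *Ddit4l*, which encode REDD1 and REDD2, the sestrin genes *Sesn1*, *Sesn2* and *Sesn3*, *Deptor*, *Tsc1* and *Tsc2*, and *Eif4ebp1* and *Eif4ebp2*. Each was taken by its gene name from the deposited count table, where the 10 genes made up 10 of 32390 rows, and each name stood on 1 row. The data are bulk RNA-seq of gastrocnemius, a calf muscle rich in fast fibers, from 4 control mice (*Nox4* fl/fl) and 4 NOX4-deficient mice (MckCre:*Nox4* fl/fl), all 21 months of age. Both genotypes carried the floxed *Nox4* alleles, and only the NOX4-deficient mice carried Cre, driven by the muscle creatine kinase promoter, which is active mainly in skeletal muscle and less in heart. The study describes these mice as males on a chow diet, and the labels place all 8 libraries in batch 1. Whole muscle was extracted, so the RNA includes that of vessel, nerve, blood and connective tissue cells, in which this Cre leaves *Nox4* in place.

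REDD1, and by similarity REDD2, restrains mTORC1 through the TSC1-TSC2 complex, which switches off the small GTPase RHEB at the lysosome. Sestrins bind the GATOR2 complex and so keep the Rag GTPases, which bring mTORC1 to the lysosome, in check when leucine is scarce, whereas DEPTOR binds mTOR itself. The 4E-BP proteins, encoded by the *Eif4ebp* genes, stand at the other end: they bind the cap-binding factor eIF4E and block translation until mTORC1 phosphorylates them. In skeletal muscle, REDD1 and the sestrins are known as stress-induced genes that respond to glucocorticoids, energy shortage, hypoxia, p53 and inactivity. Much of the control of this pathway acts on proteins and their phosphorylation, which RNA counts do not measure.

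The 8 libraries held between 16350548 and 19804661 counts on genes, with medians of 19152318 in control and 18177348 in NOX4-deficient mice. Reads on the deleted gene, *Nox4*, numbered 85, 48, 35 and 70 in controls 1 to 4 and 29, 43, 42 and 37 in NOX4-deficient mice 1 to 4. Its level overlapped between the genotypes, with a log2 fold change of -0.65 (SE 0.29, 95% interval -1.28 to -0.01, edgeR, adjusted p = 0.207). *Nox4* counts therefore did not separate the labelled groups. The study reports a large loss of *Nox4* by qPCR in muscle of younger mice of these genotypes. Which parts of the gene the counted reads came from is not given. Markers of skeletal muscle fibers summed to 57824 to 74038 CPM (counts scaled to library size) in control and 62148 to 73934 CPM in NOX4-deficient libraries, with 0 of 7 called. Of the other cell types, red blood cell markers stood apart: the 3 tested summed to 47.6 to 52.7 CPM in control and 72.3 to 159 CPM in NOX4-deficient libraries, and *Hba-a1* and *Hbb-bs* were called higher. The endothelial gene *Vwf* was called higher at a log2 fold change of 0.74 (edgeR, adjusted p = 0.0129), while the sums of slow fiber (8 of 8 genes with a positive log2 fold change, 0 called), adipocyte, leukocyte, endothelial, fibroblast and nerve markers overlapped between the genotypes. The part of other cell types in the results below was not tested.

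Levels are given as CPM scaled by edgeR's TMM method, with the SD over 4 mice, and fold changes as NOX4-deficient over control on the log2 scale. A gene was called where edgeR's quasi-likelihood test gave an adjusted p under 0.05 over all 12725 rows tested and the log2 fold change was beyond 0.5 in either direction. All 10 brake genes had enough counts to be tested. *Ddit4*, *Sesn1* and *Eif4ebp1* were called lower in NOX4-deficient muscle and 0 of the 10 were called higher, against 3.48% of all rows tested that were called lower and 2.68% that were called higher. The same 3 genes did not overlap between the genotypes and were lower in NOX4-deficient muscle, against 8.97% of all rows tested, and 0 of the 10 were higher without overlap, against 7.2%. The median log2 fold change of the 10 genes was -0.03, beside 0.01 for all rows tested, and the 7 genes that were not called lay between -0.12 for *Tsc1* and 0.48 for *Sesn3*. In whole-muscle RNA, a smaller share of the cells that express a gene and less RNA per cell cannot be told apart.

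**Figure D1:**
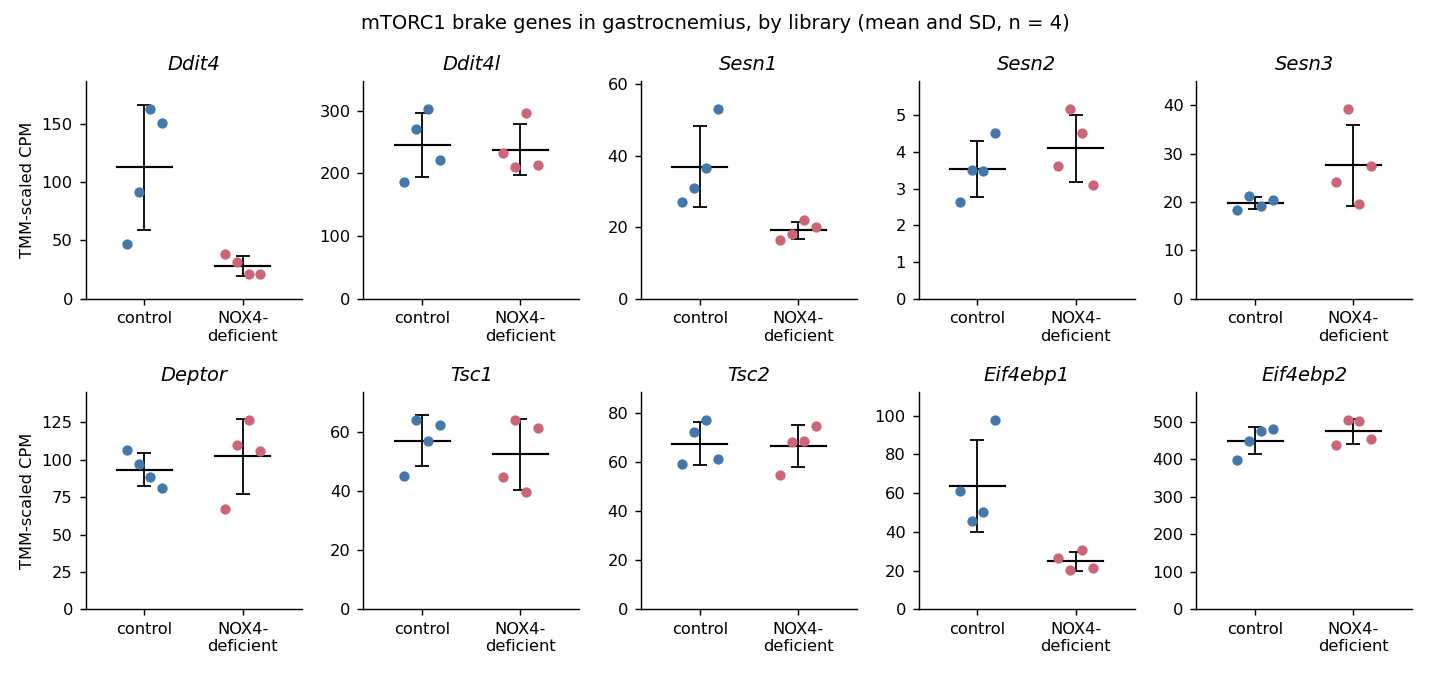
TMM-scaled CPM (vertical axes, each starting at 0) of the 10 mTORC1 brake genes in each of the 4 control (blue) and 4 NOX4-deficient (red) libraries; horizontal lines are means and error bars SDs. The points of *Ddit4*, *Sesn1* and *Eif4ebp1* do not overlap between genotypes, whereas those of the other 7 genes do.

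The REDD genes moved apart: *Ddit4* fell and its paralog *Ddit4l*, which is abundant in skeletal muscle, was not called. *Ddit4* was at 46.9, 91.7, 162 and 150 CPM in controls 1 to 4 and at 38.1, 31.7, 20.9 and 21.3 CPM in NOX4-deficient mice 1 to 4. Control 1 lay closest to the NOX4-deficient mice, and controls 3 and 4 carried the highest levels. The means were 113 ± 53.6 and 28 ± 8.40 CPM (SD, n = 4 each), a 4.03-fold lower level in the NOX4-deficient group. The log2 fold change was -2.01 (SE 0.39; 95% interval -2.89 to -1.13; edgeR, adjusted p = 0.0185). This was the largest change among the 10 genes and also the one with the widest interval, since the control libraries differed by up to 3.45-fold. Without control 4 the adjusted p (edgeR) was 0.0557, and without NOX4-deficient mouse 2, 3 or 4 it was 0.0667, 0.0528 and 0.0552, so the call was lost, while the log2 fold change stayed between -2.27 and -1.77 whichever library was left out. With no filter on low counts the call was lost as well (edgeR, adjusted p = 0.0682).

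*Ddit4l* was at 186, 271, 302 and 221 CPM in controls 1 to 4 and at 232, 210, 296 and 213 CPM in NOX4-deficient mice 1 to 4. All 4 NOX4-deficient libraries lay within the range of the controls. The means were 245 ± 51.6 and 238 ± 40.2 CPM (SD, n = 4 each), and the log2 fold change was -0.04 (SE 0.16; 95% interval -0.39 to 0.30; edgeR, adjusted p = 0.906). A change of the size seen for *Ddit4* lies outside this interval. Per kb of exon (CPM divided by the merged exon length in the GENCODE M21 annotation), the ratio of *Ddit4* to *Ddit4l* was 0.392, 0.524, 0.833 and 1.05 in controls 1 to 4 and 0.255, 0.234, 0.109 and 0.155 in NOX4-deficient mice 1 to 4. *Ddit4* RNA was thus the lesser of the pair in controls 1 to 3 and in each NOX4-deficient library. It ran closest to that of *Ddit4l* in controls 3 and 4.

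The promoters of these paralogs, the 250 bases before the transcription start given by RefSeq, are shown because their genes differed in response within 1 family. They are written 5′ to 3′ on the strand of the gene with any searched motif in capitals, here the hypoxia response core ACGTG in *Ddit4* at 187 to 183 bases before the start and the antioxidant response element core TGACNNNGC in *Ddit4l* at 46 to 38 bases before it. The *Ddit4* window lies at chr10:59951771-59952020 on the minus strand and the *Ddit4l* window at chr3:137623422-137623671 on the plus strand of GRCm38.p6, an earlier build than the GRCm39 named in the submitters' processing notes.
Ddit4: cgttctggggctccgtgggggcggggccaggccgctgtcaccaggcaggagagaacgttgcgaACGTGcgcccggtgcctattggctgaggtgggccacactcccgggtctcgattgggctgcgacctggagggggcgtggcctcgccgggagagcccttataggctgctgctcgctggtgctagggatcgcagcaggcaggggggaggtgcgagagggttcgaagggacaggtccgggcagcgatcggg
Ddit4l: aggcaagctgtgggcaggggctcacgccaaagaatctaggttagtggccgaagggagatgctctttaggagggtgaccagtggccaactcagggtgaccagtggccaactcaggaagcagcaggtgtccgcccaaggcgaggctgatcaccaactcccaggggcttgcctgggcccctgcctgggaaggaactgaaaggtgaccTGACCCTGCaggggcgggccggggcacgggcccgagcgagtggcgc
Of 32536 promoter windows of the same length, 16.7% held ACGTG and 10.2% held TGACNNNGC on either strand. The composite ATF4 and C/EBP site TGATGNAA (3.4% of windows), the FOXO site GTAAACA (3.17%) and the glucocorticoid receptor palindrome (0.39%) had no match in either window. A match is a description of letters and not of binding, and sites outside the window were not searched.

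Among the sestrins, *Sesn1* fell while *Sesn2* and *Sesn3* did not. *Sesn1*, a p53- and FOXO-regulated sestrin, was at 27.1, 30.9, 36.5 and 52.9 CPM in controls 1 to 4 and at 16.4, 18.2, 22 and 20.1 CPM in NOX4-deficient mice 1 to 4. Each control lay above each NOX4-deficient library, with control 4 highest of all. The means were 36.8 ± 11.4 and 19.1 ± 2.42 CPM (SD, n = 4 each), and the log2 fold change was -0.95 (SE 0.19; 95% interval -1.35 to -0.54; edgeR, adjusted p = 0.0119). Whichever single library was left out, *Sesn1* stayed called, with log2 fold changes of -1.07 to -0.72.

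RefSeq lists a pair of starts for *Sesn1*, and the 250 bases before each are printed because the counts cover the whole gene and do not say which start was used. The first window lies at chr10:41810324-41810573 and the second at chr10:41887189-41887438, both on the plus strand of GRCm38.p6. None of the 5 motifs searched was found in either, so no letters are in capitals.
Sesn1 start 1: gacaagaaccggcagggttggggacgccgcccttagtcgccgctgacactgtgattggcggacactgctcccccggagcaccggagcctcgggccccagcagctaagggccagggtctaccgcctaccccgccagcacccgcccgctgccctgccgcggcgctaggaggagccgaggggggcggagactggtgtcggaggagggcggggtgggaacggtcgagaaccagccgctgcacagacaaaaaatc
Sesn1 start 2: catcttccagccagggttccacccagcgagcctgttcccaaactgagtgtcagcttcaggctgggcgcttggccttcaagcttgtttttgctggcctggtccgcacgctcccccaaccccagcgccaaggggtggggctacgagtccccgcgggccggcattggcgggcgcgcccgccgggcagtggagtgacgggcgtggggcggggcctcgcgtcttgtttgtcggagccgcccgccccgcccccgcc
Of the 10 brake genes, 8 had a promoter entry, and *Deptor* and *Eif4ebp1* had none in the table used. The other matches were TGACNNNGC in *Sesn2*, at 36 to 28 bases before the start, and ACGTG on the opposite strand of *Eif4ebp2*, at 182 to 178 bases before it. Of the called genes, *Ddit4* therefore held 1 match and *Sesn1* held 0, while *Ddit4l*, *Sesn2* and *Eif4ebp2*, which were not called, held 1 each.

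*Sesn2*, the best known leucine sensor of the family and a target of ATF4 and NFE2L2, was the scarcest brake. It was at 2.64, 3.50, 3.48 and 4.52 CPM in controls 1 to 4 and at 3.61, 5.16, 4.52 and 3.11 CPM in NOX4-deficient mice 1 to 4. The groups overlapped, and the log2 fold change was 0.21 (SE 0.22; 95% interval -0.26 to 0.69; edgeR, adjusted p = 0.610). *Sesn3*, a FOXO target, was at 18.4, 21.3, 19.1 and 20.4 CPM in controls 1 to 4 and at 24.2, 39.1, 19.7 and 27.4 CPM in NOX4-deficient mice 1 to 4. NOX4-deficient mouse 3 lay within the narrow control range and the other NOX4-deficient mice lay above it. The means were 19.8 ± 1.30 and 27.6 ± 8.33 CPM (SD, n = 4 each), and the log2 fold change of 0.48 (SE 0.18; 95% interval 0.09 to 0.87) had an adjusted p of 0.128 (edgeR). Without NOX4-deficient mouse 3 the gene was called higher (log2 fold change 0.62; edgeR, adjusted p = 0.0492), and without mouse 2, its highest library, the log2 fold change was 0.26 (edgeR, adjusted p = 0.261).

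With *Sesn1* down and *Sesn3* not called, the makeup of sestrin RNA differed between the groups. Per kb of exon, *Sesn1* made up 71.7, 70.6, 75.3 and 79.5% of the summed sestrin RNA in controls 1 to 4 and 53.5, 44.9, 62.2 and 57.2% in NOX4-deficient mice 1 to 4. It was the main sestrin in each control library, and in NOX4-deficient mouse 2 it held less than the other sestrins combined. The sum of the 3 sestrins was 12.4 ± 3.13 CPM per kb in control and 8.91 ± 1.01 CPM per kb in NOX4-deficient muscle (SD, n = 4 each), and these sums overlapped, running from 9.53 to 16.8 and from 7.71 to 10.2 CPM per kb.

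**Figure D2:**
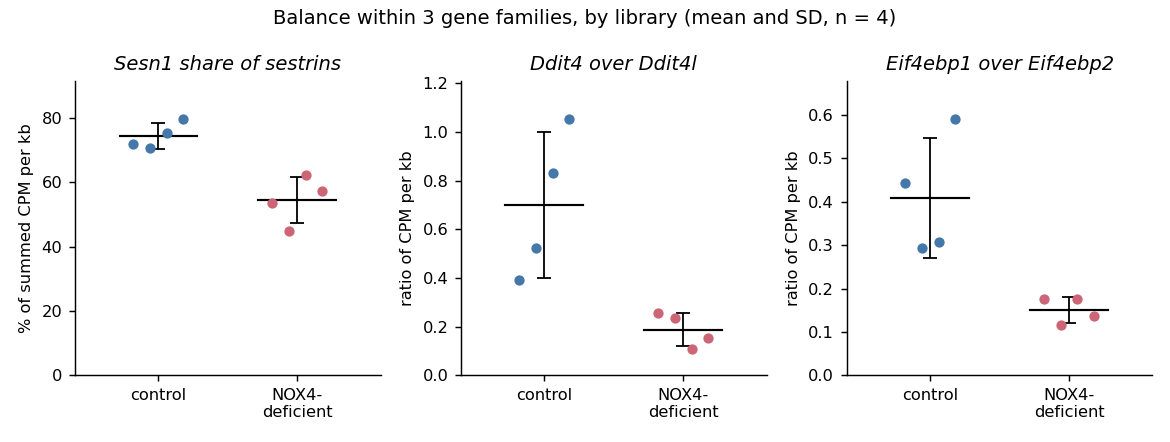
Balance within 3 gene families in each control (blue) and NOX4-deficient (red) library, from CPM per kb of exon: the share of *Sesn1* in the summed sestrins (percent), and the ratios of *Ddit4* to *Ddit4l* and of *Eif4ebp1* to *Eif4ebp2*. Lines are means and bars SDs (n = 4), and in each panel all 4 NOX4-deficient points lie below the controls.

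Brakes that act at the core of the pathway were not called. *Deptor*, which encodes an inhibitory subunit of both mTOR complexes, was at 107, 97.3, 88.1 and 81.1 CPM in controls 1 to 4 and at 67.3, 110, 126 and 106 CPM in NOX4-deficient mice 1 to 4. NOX4-deficient mouse 1 had the lowest level of all 8 and mouse 3 the highest, so the NOX4-deficient range enclosed that of the controls. The log2 fold change was 0.13 (SE 0.17; 95% interval -0.23 to 0.50; edgeR, adjusted p = 0.680).

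*Tsc1*, which encodes the stabilizing partner hamartin, was at 45.2, 64.0, 57.0 and 62.4 CPM in controls 1 to 4 and at 44.8, 64.1, 39.8 and 61.3 CPM in NOX4-deficient mice 1 to 4. Both groups spanned nearly the same range, and the log2 fold change was -0.12 (SE 0.16; 95% interval -0.48 to 0.23; edgeR, adjusted p = 0.700). *Tsc2*, which encodes tuberin, the part of the complex that switches RHEB off, was at 59.0, 72.4, 77.1 and 61.1 CPM in controls 1 to 4 and at 54.7, 68.2, 68.7 and 74.8 CPM in NOX4-deficient mice 1 to 4. Its means of 67.4 ± 8.71 and 66.6 ± 8.45 CPM (SD, n = 4 each) differed by less than the spread between mice, with a log2 fold change of -0.02 (SE 0.12; 95% interval -0.29 to 0.25; edgeR, adjusted p = 0.956). In GENCODE M21, 693 bases (10.9%) of the exons of *Tsc2* overlap those of *Pkd1* on the opposite strand, and 277 bases (3.12%) of those of *Deptor* overlap *Gm9920*. The libraries were unstranded, so reads from these stretches cannot be assigned to 1 gene of each pair, whereas the exons of the other 8 brake genes overlap none.

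The translation repressors repeated the pattern of the REDD genes, with 1 member of the pair lower and the other not called. *Eif4ebp1*, which encodes 4E-BP1, was at 61.1, 45.5, 50.3 and 97.7 CPM in controls 1 to 4 and at 26.8, 20.2, 30.6 and 21.5 CPM in NOX4-deficient mice 1 to 4. The lowest control lay above the highest NOX4-deficient library, and control 4 stood well above the other controls. Means were 63.7 ± 23.6 and 24.7 ± 4.83 CPM (SD, n = 4 each), and the log2 fold change was -1.36 (SE 0.23; 95% interval -1.88 to -0.85; edgeR, adjusted p = 0.00729). The call held without each library in turn, and without control 4 the log2 fold change was -1.08 (edgeR, adjusted p = 0.00371).

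*Eif4ebp2*, which encodes 4E-BP2, was at 399, 448, 475 and 480 CPM in controls 1 to 4 and at 439, 505, 503 and 455 CPM in NOX4-deficient mice 1 to 4. The groups overlapped, and the log2 fold change of 0.08 (SE 0.10; 95% interval -0.14 to 0.30; edgeR, adjusted p = 0.696) had the narrowest interval among the 10 genes. Per kb of exon, the ratio of *Eif4ebp1* to *Eif4ebp2* was 0.408 ± 0.138 in control and 0.151 ± 0.0303 in NOX4-deficient muscle (SD, n = 4 each). *Eif4ebp2* was the more abundant of the pair in all 8 libraries, and the sum of both genes overlapped between the groups, at 99.5 to 132 CPM per kb in control and 89.2 to 102 CPM per kb in NOX4-deficient muscle. *Eif4ebp3*, the remaining 4E-BP gene, had at most 4 counts in a library and was not tested.

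**Figure D3:**
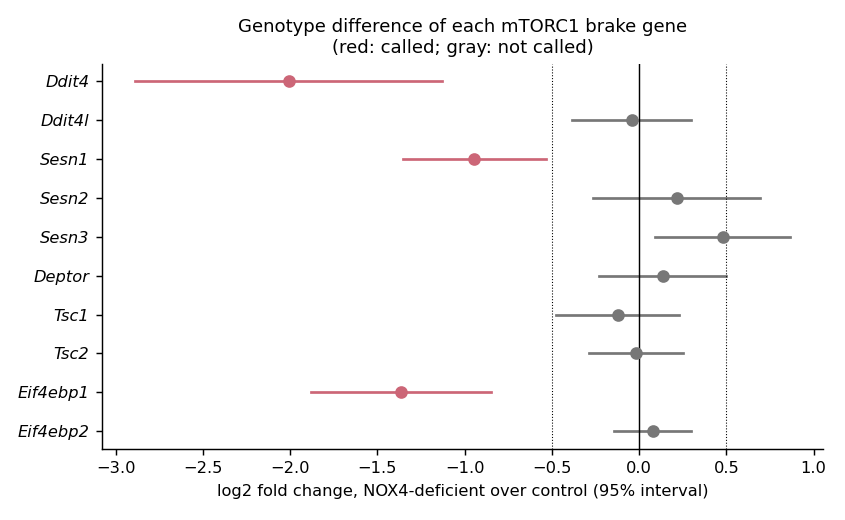
Log2 fold change (NOX4-deficient over control, horizontal axis) of each mTORC1 brake gene with its 95% interval from edgeR; dotted lines mark log2 fold changes of 0.5 in either direction, red marks called genes and gray those not called. The intervals of *Ddit4*, *Sesn1* and *Eif4ebp1* lie below 0, that of *Sesn3* runs from 0.09 to 0.87, and those of the other 6 genes include 0.

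Levels per kb of exon place the brakes against each other. In control muscle the order was *Ddit4l* (90.0 ± 18.9 CPM per kb), *Eif4ebp2* (77.9 ± 6.42), *Ddit4* (64.2 ± 30.5), *Eif4ebp1* (31.9 ± 11.8), *Tsc2* (10.6 ± 1.37), *Deptor* (10.5 ± 1.26), *Sesn1* (9.29 ± 2.86), *Tsc1* (7.38 ± 1.10), *Sesn3* (2.08 ± 0.137) and *Sesn2* (1.02 ± 0.222), each as mean and SD over 4 mice. Neighbors in this order overlapped over the control libraries from *Ddit4l* to *Eif4ebp1* and again from *Tsc2* to *Tsc1*, while *Eif4ebp1* and *Tsc2*, *Tsc1* and *Sesn3*, and *Sesn3* and *Sesn2* did not overlap. In NOX4-deficient muscle *Ddit4l* (87.3 ± 14.8 CPM per kb) and *Eif4ebp2* (82.2 ± 5.82) led as before, and *Ddit4*, still the third, had dropped to 16 ± 4.78 CPM per kb and no longer overlapped *Eif4ebp2*. There *Ddit4* overlapped *Eif4ebp1* (12.4 ± 2.42 CPM per kb), and *Sesn1* (4.82 ± 0.609 CPM per kb) ranked below *Tsc1* (6.78 ± 1.55). Thus the called genes included *Ddit4* and *Eif4ebp1*, which ranked right below the leading pair, and the leading pair was not called.

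For each called brake, the 3 tested genes with the most similar profile over the 8 libraries were found by the root mean square difference of centered log2 CPM. For *Ddit4* they were *Odc1*, encoding the polyamine enzyme ornithine decarboxylase (difference 0.448), *Fgl2* (0.466) and *Cebpd*, a C/EBP transcription factor (0.468). For *Sesn1* they were *Bnip3*, encoding a mitophagy receptor (0.101), *Slc10a6* (0.144) and *Zfyve1* (0.163), and for *Eif4ebp1* they were *Pnpla2*, encoding the lipase ATGL (0.211), *2410006H16Rik* (0.215) and *Hspb1*, encoding a small heat shock protein (0.221). Their log2 fold changes ran from -2.04 for *Odc1* to -0.87 for *Bnip3*; since the profiles include the genotype difference of a brake called lower, this direction follows from how they were chosen. The nearest genes of *Ddit4* lay further from it than those of *Sesn1* did. This difference is not scaled to how much a gene varies, and *Ddit4* varied more than *Sesn1*. The call of *Fgl2* was lost without control 3 or without any 1 NOX4-deficient mouse (edgeR, adjusted p = 0.0641 to 0.0913), and that of *Cebpd* without control 4 or NOX4-deficient mouse 1 or 2 (0.0599 to 0.0702). With no filter on low counts, *Fgl2* and *Cebpd* were not called either (edgeR, adjusted p = 0.135 and 0.0797). That of *Slc10a6* was lost without control 3 or 4 or NOX4-deficient mouse 1, 2 or 4 (edgeR, adjusted p = 0.0751 to 0.109), and that of *2410006H16Rik* without NOX4-deficient mouse 2 (0.0512).

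The rest of the pathway was described with 57 genes around the brakes, of which 55 were tested. Of these, 3 (5.45%) were called lower and 2 (3.64%) higher, near the 3.48% and 2.68% of all rows tested, and their median log2 fold change was -0.04. Upstream of the Rag GTPases, 0 of 7 genes of GATOR1 and its anchor KICSTOR were called, and their median log2 fold change was -0.01. GATOR2, the complex that sestrins bind, and the amino acid sensors likewise had 0 of 10 called. In that list *Sar1b*, which encodes a leucine sensor that also works in vesicle transport, had means of 705 ± 45.3 and 522 ± 58.2 CPM in the control and NOX4-deficient groups (SD, n = 4 each), which did not overlap, but its log2 fold change of -0.43 (edgeR, adjusted p = 0.0305) was short of 0.5. Among 13 genes of the Rag GTPases, Ragulator and folliculin complexes, 1 was called: *Flcn*, encoding folliculin, which activates RagC and RagD, fell from 83.0 ± 8.92 to 53.1 ± 8.54 CPM (SD, n = 4 each; log2 fold change -0.64, SE 0.13; edgeR, adjusted p = 0.0113).

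The direct partners of the brakes were not called. *Rheb*, the GTPase that TSC2 switches off, averaged 113 ± 9.80 CPM over the controls and 91.3 ± 6.57 CPM over the NOX4-deficient libraries, without overlap (SD, n = 4 each; log2 fold change -0.31; edgeR, adjusted p = 0.0790), and 0 of 3 genes in the list of the third TSC subunit and RHEB were called. Of 9 tested genes of the mTOR complexes 0 were called, and *Mtor* itself was at a log2 fold change of -0.30 (SE 0.14; edgeR, adjusted p = 0.224).

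Genes at or below mTORC1 differed in both directions, with 2 lower and 2 higher of 13 tested, beside 3.48% and 2.68% of all rows tested. *Ulk1*, encoding an autophagy kinase that mTORC1 inhibits, fell from 159 ± 24.9 to 87.8 ± 4.64 CPM (SD, n = 4 each; log2 fold change -0.86, SE 0.12; edgeR, adjusted p = 0.00127). *Eif4a1*, encoding the helicase of the cap-binding complex, fell from 124 ± 19.6 to 83.8 ± 6.21 CPM (log2 fold change -0.57; edgeR, adjusted p = 0.0140), and without control 4 its log2 fold change was -0.45 and the call was lost. *Pdcd4*, whose product inhibits that helicase and is marked for degradation by S6 kinase, rose from 12.0 ± 1.83 to 22.5 ± 1.02 CPM (log2 fold change 0.91, SE 0.13; edgeR, adjusted p = 0.00147). *Eef2k*, encoding the kinase that slows elongation and that S6 kinase inhibits, rose from 61.1 ± 4.66 to 86.5 ± 9.08 CPM at a log2 fold change of 0.50, just past the threshold (edgeR, adjusted p = 0.0149), and its call was lost without control 2 or 4 or NOX4-deficient mouse 2 or 4, at log2 fold changes of 0.45 to 0.49. Among brakes of translation, then, *Eif4ebp1* was lower while *Pdcd4* and *Eef2k* were higher, and *Eif4ebp2* was not called.

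**Figure D4:**
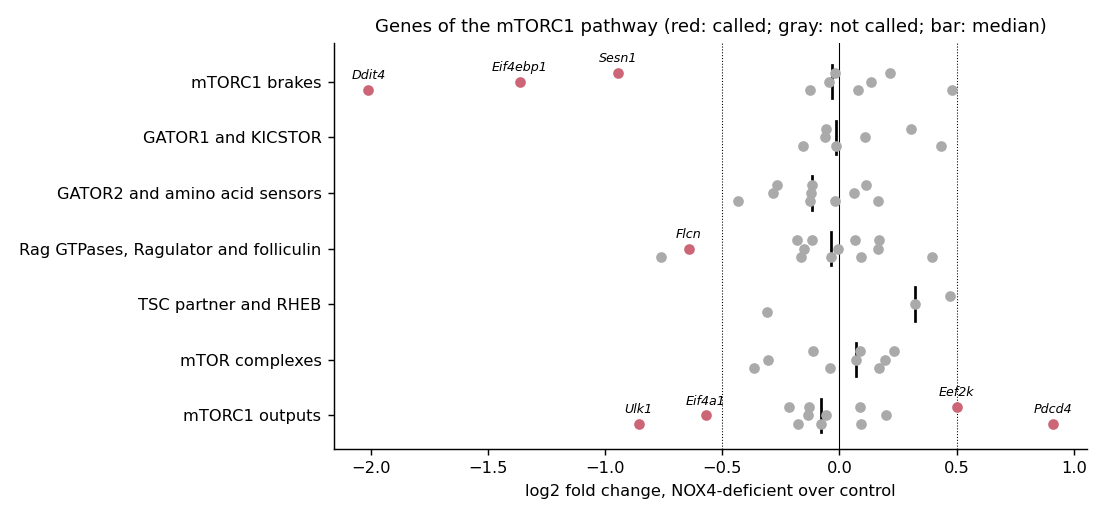
Log2 fold changes (NOX4-deficient over control, horizontal axis) of the 10 mTORC1 brakes and of 55 other tested genes of the pathway in 6 groups; each point is a gene, red points are called and named, gray points are not called, black bars are group medians and dotted lines mark 0.5 in either direction. Called genes number 3 among the brakes, 1 among the Rag, Ragulator and folliculin genes, 4 among the outputs and 0 in the other groups.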

How the data were processed

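Poly(A) RNA from gastrocnemius of 8 mice was sequenced as unstranded paired-end libraries. The table the authors deposited holds raw counts for each gene, not normalized, and the submitters' processing notes name STAR and GRCm39; the settings of the counter are not given in the sources used here. 0 columns of other samples were present. Groups came from the sample titles.

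These counts were fitted with edgeR 4.0.16 under R 4.3.3 (TMM, filterByExpr, estimateDisp, robust glmQLFit, glmQLFTest) on all 8 libraries, with genotype as the only term and Benjamini-Hochberg adjustment over 12725 rows. The SE of a log2 fold change was taken from the F statistic. Every replicate pair differed beyond sampling noise (chi-square divided by its degrees of freedom, 13.5 to 56.4). The fit was tested on simulated data. The p-values weigh the genotype difference against the spread between libraries within a genotype, and rest on these 8 libraries.

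The 10 genes and all gene lists were chosen with earlier results of these data known, and no set was tested. Genes named are the 10 brakes, *Nox4*, called genes of each list (up to 4 by smallest p, or the 1 with the smallest p), the 3 nearest genes of each called brake, and called or near-absent markers; some results that this rule names are not reported here. Promoters came from RefSeq (GRCm38.p6), exon lengths and overlaps from GENCODE M21. Alternatives were other scalings, filters and thresholds, a fit that was not robust, rows of 1 name summed, the replicate number as a block, DESeq2 1.42.0, pydeseq2 0.5.4, and each library left out.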

Additional observations from a re-analysis of the deposited data

Results flagged for a closer look

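Of 132 groups of 4 libraries examined for a single library far from the rest, 7 were picked out, where chance gives about 6.6. None concerned one of the 10 brake genes. *Nox4* was lowest in NOX4-deficient mouse 1, at 1.74 CPM, with the other 3 between 2.17 and 2.21 CPM. *Flcn* was highest in control 2, at 96.3 CPM against 78.0 to 79.1 CPM in the other controls. Control 4 had the highest *Eif4a1*, at 154 CPM against 113 to 116 CPM, and the highest *Cdkn1a*, at 175 CPM against 66.0 to 80.2 CPM. *Mt1* was lowest in NOX4-deficient mouse 2, at 3.24 CPM against 4.99 to 5.26 CPM. The summed fast fiber markers were highest in control 3, at 148698 CPM against 123862 to 126104 CPM, and the summed adipocyte markers were highest in control 1, at 80.8 CPM against 14.6 to 25.5 CPM.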

How the results depend on the processing

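Each result was recomputed under 19 alternatives, 8 of which leave out 1 library. For the 10 brake genes 173 of 190 alternatives kept the direction and the call. *Eif4ebp1* kept both in all 19, and without single libraries its log2 fold change ran from -1.5 to -1.08. *Ddit4* lost its call with no filter on low counts (-2.02; edgeR, adjusted p = 0.0682), with an adjusted p threshold of 0.01 (-2.01), and with the replicate block (-1.92; edgeR, adjusted p = 0.143), and ran from -2.27 to -1.77 without single libraries; DESeq2 and pydeseq2 gave adjusted p-values of 1.64e-04 and 1.73e-04. *Sesn1* lost its call only at the threshold of 0.01 (-0.95) and ran from -1.07 to -0.72 without single libraries. At that threshold 1 brake was called lower, as were 1 other pathway gene lower and 1 higher. Without single libraries, 2 to 3 brakes were called lower and 0 to 1 higher, the latter being *Sesn3* without NOX4-deficient mouse 3 (*Sesn3* ran from 0.26 to 0.62). *Ddit4l* changed sign within -0.16 to 0.087 without single libraries, and *Tsc2* within -0.077 to 0.077, as well as to 0.0017 with at least 10 counts in every library. Other pathway genes called higher numbered 1 with no filter, DESeq2, pydeseq2 or the replicate block, and 1 to 2 without single libraries. Over all rows, 443 lower and 341 higher calls became 295 and 204 without control 4, and 227 higher without control 2. With the replicate block, *Cdkn1a* (-1.91; edgeR, adjusted p = 0.0718) and *Fgl2* (-1.54; adjusted p = 0.185) also lost their calls. Whether the replicate numbers pair the mice is not given, and the libraries were treated as unpaired: deviations of equally numbered libraries correlated at 0.0461 to 0.254, and 1 of 4 controls correlated best with its own number. The cause of these changes was not tested.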

Other observations

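Transcription factors known to act on the brake genes were lower in part: 2 of 9 tested were called lower and 0 higher, beside 3.48% and 2.68% of all rows tested, and their median log2 fold change was -0.49. They were *Nfe2l2* (70.3 ± 0.835 against 44.9 ± 8.22 CPM in NOX4-deficient mice, SD, n = 4 each; log2 fold change -0.65; edgeR, adjusted p = 0.0112) and *Klf15*, a glucocorticoid-induced factor (log2 fold change -0.72; edgeR, adjusted p = 0.0195), whose call was lost without control 3 or 4 (edgeR, adjusted p = 0.0587 and 0.0578). Of genes that respond to glucocorticoids, which also induce *Ddit4*, 7 of 11 tested were called lower, against 3.48% of all rows tested, and their median log2 fold change was -1.42. Examples were *Zbtb16* (140 ± 3.70 and 35.5 ± 12.7 CPM, SD, n = 4 each; log2 fold change -1.98; edgeR, adjusted p = 0.000601), *Mt1*, encoding a metallothionein (-1.83), *Errfi1* (-0.81) and *Cebpd* (-1.89; call lost without control 4 or NOX4-deficient mouse 1 or 2, at -1.79, -1.82 and -1.94). The summed level of this list was 3524, 3979, 4646 and 4605 CPM in controls 1 to 4 and 1355, 1873, 2260 and 2302 CPM in NOX4-deficient mice 1 to 4. *Pdk4* and *Glul* weighed most in this sum, at means of 1873 and 871 CPM in control and 645 and 325 CPM in NOX4-deficient muscle. Among controls, control 1 was lowest and control 3 highest in both this sum and *Ddit4*, whereas among NOX4-deficient mice, mouse 1 was lowest in the sum and highest in *Ddit4*.

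Targets of p53, which induces *Sesn1*, had 3 of 10 called lower, beside 3.48% of all rows tested, and a median log2 fold change of -0.18: *Phlda3* (-0.89; edgeR, adjusted p = 0.000452), the cell cycle inhibitor *Cdkn1a* (-2.03; edgeR, adjusted p = 0.00841) and *Eda2r* (-1.31; edgeR, adjusted p = 0.0185; call lost without NOX4-deficient mouse 1, at an adjusted p of 0.0597, and with no filter on low counts). The other 7, among them the p53 inhibitor *Mdm2*, were not called. ATF4 is among the transcription factors listed above as acting on the brake genes, *Sesn2* among them. Its own gene, *Atf4*, was lower without overlap, averaging 237 CPM over the controls and 168 CPM over the NOX4-deficient libraries. The log2 fold change of *Atf4*, -0.494, was short of 0.5 (edgeR, adjusted p = 0.0354), so it was not called. Targets of ATF4 had 0 of 10 called, with a median of -0.13 and the smallest p for *Vldlr* (-0.52, edgeR, adjusted p = 0.111). The targets *Slc7a11*, *Fgf21* and *Gdf15* had too few counts to be tested. Of 8 hypoxia-responsive genes 2 were called lower, beside the same 3.48% of all rows, the prolyl hydroxylase gene *Egln3* (-1.60; edgeR, adjusted p = 0.000984) and *Bnip3* (-0.87; edgeR, adjusted p = 0.00619), and the median was -0.15. The part of these regulators in the levels of the brake genes was not tested.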
